A study of Mus musculus with 68 samples.

Results

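The G2 and mitosis genes are 46 genes chosen by name, from cyclins, Cdk1 and the mitotic kinases to kinetochore, spindle, cytokinesis and condensin subunits. Their transcripts were followed in single cells of the embryonic mouse cerebral wall through every probe set that the array's annotation gives to 1 of them alone. 45 of the 46 had such a probe set, out of 18194 genes with a probe set in the series, and the cyclin gene Ccnb1 was not analysed here. The 45 genes had 100 probe sets, of which 85 reached the 20-copy level in at least 1 cell and 15 never did. The 20-copy level is the median signal of a spike RNA that was added at 20 copies per cell (842 signal units, or 9.72 on the log2 scale). All 45 genes, among 9927 genes in all, reached it in at least 1 cell, and each is given by its brightest probe set as the log2 of the quantile-normalised signal.

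A dividing cell accumulates the transcripts of these genes from S phase to mitosis. Cyclin-bound Cdk1 and the Polo and Aurora kinases drive entry into mitosis, the kinetochore and its checkpoint hold the chromosomes until all are attached, and the anaphase-promoting complex then destroys cyclins and securin. Cells that leave the cycle, such as neurons, lose most of these transcripts. In the embryonic cortex the apical progenitors (APs) line the ventricle and divide there, the intermediate progenitors (IPs) divide away from it, and neurons do not divide.

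All cells were from CD1 mice and each array held the amplified cDNA of 1 cell. There were 30 cells of E11 and 28 of E16 whose labels give only the stage, 3 APs of E12, 3 APs from neurospheres grown for 3 days in vitro from E11 tissue, and 4 NICD/p18 APs. The E11 and E16 cells had been selected by PCR of marker genes to represent progenitors. Shares of cells given below thus describe selected cells and not a stage as a whole. The NICD/p18 APs came from E14 brains that had received plasmids by electroporation at E11, 3 days earlier. One was pCAG-NICD for the active Notch1 fragment, which holds cells as APs. Another was pEF-p18 for a Cdk4 and Cdk6 inhibitor, which arrests them before S phase. Both transgenes ran from promoters active in most cells. A further plasmid carried the reporter EGFP, and EGFP-positive cells were picked, which was done for no other group here. Ki67 was checked by PCR to be absent from the NICD/p18 APs, and the E12 and neurosphere APs are described as Ki67-positive, so Mki67 is no finding in comparisons of these cells. Wild-type cells of E14, which would match the age of the arrested cells, were not analysed here.

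The E11 and E16 cells were sorted into classes with AP, IP and neuron marker genes, none of them a mitotic gene. E11 held 23 AP-like, 3 IP-like and 3 neuron-like cells, after cell E11-31i was left out for its quality as the study's methods do, and E16 held 17, 8 and 3. The study counts more IPs at E16 than the 8 here. Of the E16 neuron-like cells, 72J had 6 IP and 4 neuron markers over the 20-copy level, and 76J had 6 and 7. Members were not used for this sorting. Cks2 and Kpna2 were still among the 10 leading genes of the E11 AP-like cells, Smc2 among those of the E11 IP-like cells and Cenpa among those of the E16 IP-like cells. AP markers over the 20-copy level numbered 12 to 15 of 17 in the NICD/p18 APs, 7 to 13 in the neurosphere APs and 10 to 15 in the E12 APs. The E12 AP 103L had the IP marker Eomes (Tbr2) at 11.75, over the level, though E12 APs were picked as Tbr2-negative by PCR. No blood or microglial marker was over the level in those 10 cells, and the vessel gene Cldn5 was over it in 1 NICD/p18 AP. Neuron markers over the level numbered 1 to 8 of 13 in the NICD/p18 APs, against 1 to 4 in the neurosphere APs and 7 to 10 in the E11 neuron-like cells. They were highest in the cells M5K and M6C. Their part in the results was not tested beyond counts made without these cells, which are given below. The 10 arrays of E12, neurosphere and NICD/p18 cells had been scaled to a trimmed mean signal of 500.0, while the other 58 ran from 47.5 to 297.5. Processing and condition cannot be told apart wherever the 2 sets of arrays meet. Labels name no embryo or culture, so each group is 1 sample, and no test between groups was possible. Values are given with the SD between cells. Gapdh, a gene of every cell, stood at 12.49 to 13.49 in the NICD/p18 APs and at 12.91 to 13.43 in the neurosphere APs.

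The promoters of these genes are known for a pair of short elements, the cell cycle genes homology region (CHR) and the CCAAT box. A few promoters that hold both are shown. RefSeq promoters on GRCm38.p6 matched 39 of the 46 genes by symbol, Ccnb1 among them, with 41 start sites. Aurkb, Ccna2, Cdc25c, Foxm1, Incenp, Smc4 and Tpx2 had no match. In the 250 bases before the start, TTTGAA or TTCGAA (the CHR) was found on either strand in 36.6% of the 41 promoters and in 17.1% of all 32851 promoters. CCAAT was found on either strand in 75.6% against 33.8%, and 2 or more of it in 46.3% against 10.1%. Both motifs together occurred in 36.6% of the members' promoters and in 6.02% of all. The promoters printed below each hold both, so they do not stand for the whole set. Nusap1 and Cks2, which followed the other members closely (r = 0.86 and 0.83), are not printed. Nusap1 held neither motif and Cks2 held no CHR. The last 120 bases before the start are printed here for Cdk1 (chr10:69352913-69353032, minus strand), Cdc20 (chr4:118437344-118437463, minus strand), Ube2c (chr2:164769809-164769928, plus strand), Top2a (chr11:99024190-99024309, minus strand) and Kpna2 (chr11:106999526-106999645, minus strand). Capitals mark the CHR and CCAAT letters on either strand, and no copies overlap.
Cdk1: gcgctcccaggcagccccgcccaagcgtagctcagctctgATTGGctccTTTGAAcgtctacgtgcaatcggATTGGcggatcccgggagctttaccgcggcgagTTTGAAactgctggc
Cdc20: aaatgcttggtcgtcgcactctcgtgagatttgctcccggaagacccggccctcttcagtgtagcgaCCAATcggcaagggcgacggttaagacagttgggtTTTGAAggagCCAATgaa
Ube2c: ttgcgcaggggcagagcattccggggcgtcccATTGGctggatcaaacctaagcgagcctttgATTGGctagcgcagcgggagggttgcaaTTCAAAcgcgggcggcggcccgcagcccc
Top2a: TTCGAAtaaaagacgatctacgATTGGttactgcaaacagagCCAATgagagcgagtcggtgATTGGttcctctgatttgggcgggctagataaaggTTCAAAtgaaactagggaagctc
Kpna2: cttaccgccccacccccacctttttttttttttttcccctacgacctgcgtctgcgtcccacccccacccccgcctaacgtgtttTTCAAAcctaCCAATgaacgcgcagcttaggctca
A match of letters is a description and not a binding site. Cdk1 and Top2a each held 2 CHR matches in these stretches, and Cdc20, Ube2c and Kpna2 held 1 each. Kpna2, whose transcript stayed over the 20-copy level in every arrested cell, held 1 match of each kind.

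The number of member genes over 20 copies separated cycling from arrested APs without overlap. Ki67 status by PCR had gone into choosing or checking the E12, neurosphere and NICD/p18 APs. Mki67 varied with the other members across AP-like cells (r = 0.60). The separation may thus be partly set by the choice of cells, and how far was not tested. The 3 neurosphere APs held 39 (W2G), 28 (W2O) and 35 (W6D) of the 45, the 3 E12 APs held 31, 35 and 42, and the 4 NICD/p18 APs held 4 (M5A), 4 (M5K), 1 (M6C) and 4 (M6H). E11 AP-like cells ran from 12 to 40 with a median of 37, and E16 AP-like cells from 5 to 40 with a median of 32. The lowest E16 AP-like cell, 81M, thus stood 1 gene above the highest arrested cell. IP-like cells held 21, 44 and 44 members at E11 and 5 to 43, with a median of 41, at E16. Neuron-like cells held 1, 2 and 14 at E11 and 1, 2 and 5 at E16, overlapping the arrested APs.

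**Figure D1:**
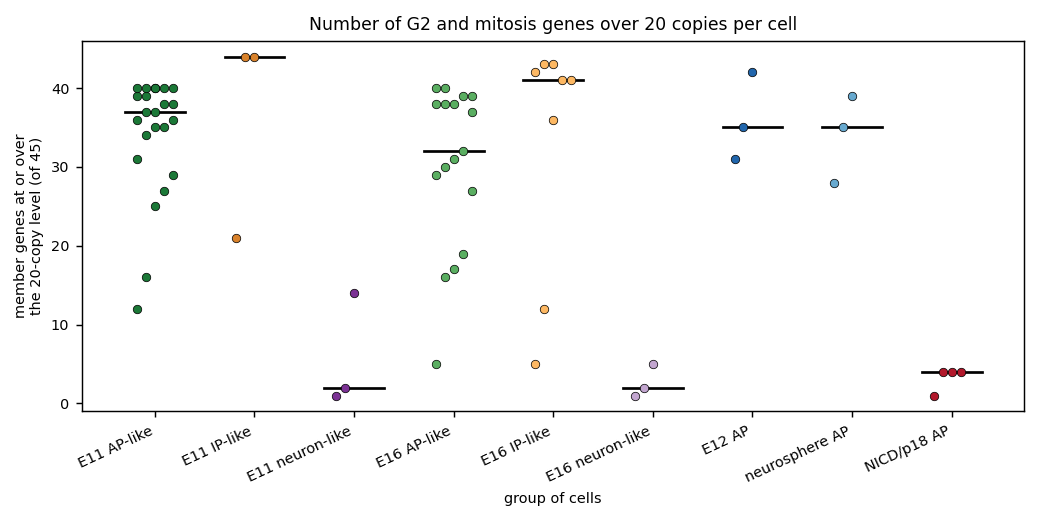
Number of the 45 G2 and mitosis genes at or over the 20-copy level (vertical axis) in each of 67 cells (points), by group, with a line at each group's median. The 4 NICD/p18 APs lie at 1 to 4 genes and the 3 neurosphere APs at 28 to 39, while single AP-like and IP-like cells of E16 reach down to 5.

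The genes over the level in the arrested cells were few and mostly differed from cell to cell. M5A held Plk1, Ube2c, Kpna2 and Cks2, M5K held Cdk1, Cdc25b, Cdca8 and Kpna2, M6C held Kpna2 alone, and M6H held Plk1, Cenpf, Pttg1 and Kpna2. Kpna2, an importin subunit that also regulates spindle assembly factors, was the 1 member over the level in all 4 cells, and 36 members were over it in none. Kpna2 was also over it in 1 of 3 E11 and 2 of 3 E16 neuron-like cells. For a gene over the level in 0 of 4 cells, the exact binomial interval (95%, counting error only) reaches up to 60.2%.

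Against neurosphere APs, 37 members were called lower in the NICD/p18 APs and none higher. A call is a difference of group means of at least 2 on the log2 scale, or 4-fold, with the higher mean at the 20-copy level or above. Over all genes 6.93% were called lower and 3.55% higher. All 45 members had the lower mean in the arrested cells, and the median difference was -7.40 on the log2 scale against -0.16 over all genes. In 40 members every arrested cell lay below every neurosphere cell, as in 5.78% of all genes. The exceptions were Ccnb2, Cdc25b, Cdc20, Ndc80 and Foxm1. Counts of groups that do not overlap ask for no level. For Ttk, Prc1 and Ckap2 the lowest neurosphere cell, at 4.51, 5.71 and 6.11, was itself far under the 20-copy level. Differences of means as large as the median set a signal against array background, so they are no ratio of transcript numbers. Taken as the mean of all its probe sets instead of the brightest, 18 members were called lower. The share of all genes called was not counted under this or any other alternative setting. The members had 40 other probe sets that reached the level, of which 39 were lower in the arrested cells, 13 were called lower and none higher, and 27 had both means under the level.

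The comparison with E12 APs and with E11 AP-like cells used the same 4 arrested cells and is not independent of it. Against E12 APs 34 members were called lower and none higher, where 8.06% of all genes were called lower and 3.61% higher, and the groups did not overlap for 37 members and 6.73% of all genes. Against E11 AP-like cells 30 members were called lower and none higher, where 4.36% of all genes were called lower and 4.31% higher, and no arrested cell reached the lowest of the 23 E11 cells for 9 members and 0.675% of all genes. The 9 were Mki67, Top2a, Bub1, Bub1b, Mad2l1, Cenpa, Tpx2, Melk and Tacc3. The lowest E11 cell was far under the level used for calls in Top2a (5.51), Bub1b (5.78), Mad2l1 (3.86), Tpx2 (4.93) and Melk (2.74). In Cenpa alone was the lowest E11 cell over that level, at 9.80. Median differences over the members were -7.54 and -6.66. With the mean of all probe sets of a gene, 19 and 15 members were called lower in these comparisons, with no share of all genes counted. In all 3 comparisons 26 members were called lower. Cdc25b, Foxm1, Ndc80 and Ttk were called in none, and the 8 called in 2 of 3 were Ccnb2, Cdc25c, Ect2, Espl1, Hmmr, Kpna2, Nek2 and Spc25. Without M5K and M6C, the cells with the highest neuron marker levels, the members called lower were 36, 32 and 29. This count was made after seeing the data and without the share over all genes. The arrested cells were 2 or 3 days older than the E11 and E12 cells, and their age and arrest cannot be told apart in those comparisons. Arrest also came with the NICD and p18 transgenes and with electroporation in all 3 comparisons. Against the neurosphere APs it came with growth in the brain rather than in culture as well. None of these can be told apart from arrest.

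**Figure D2:**
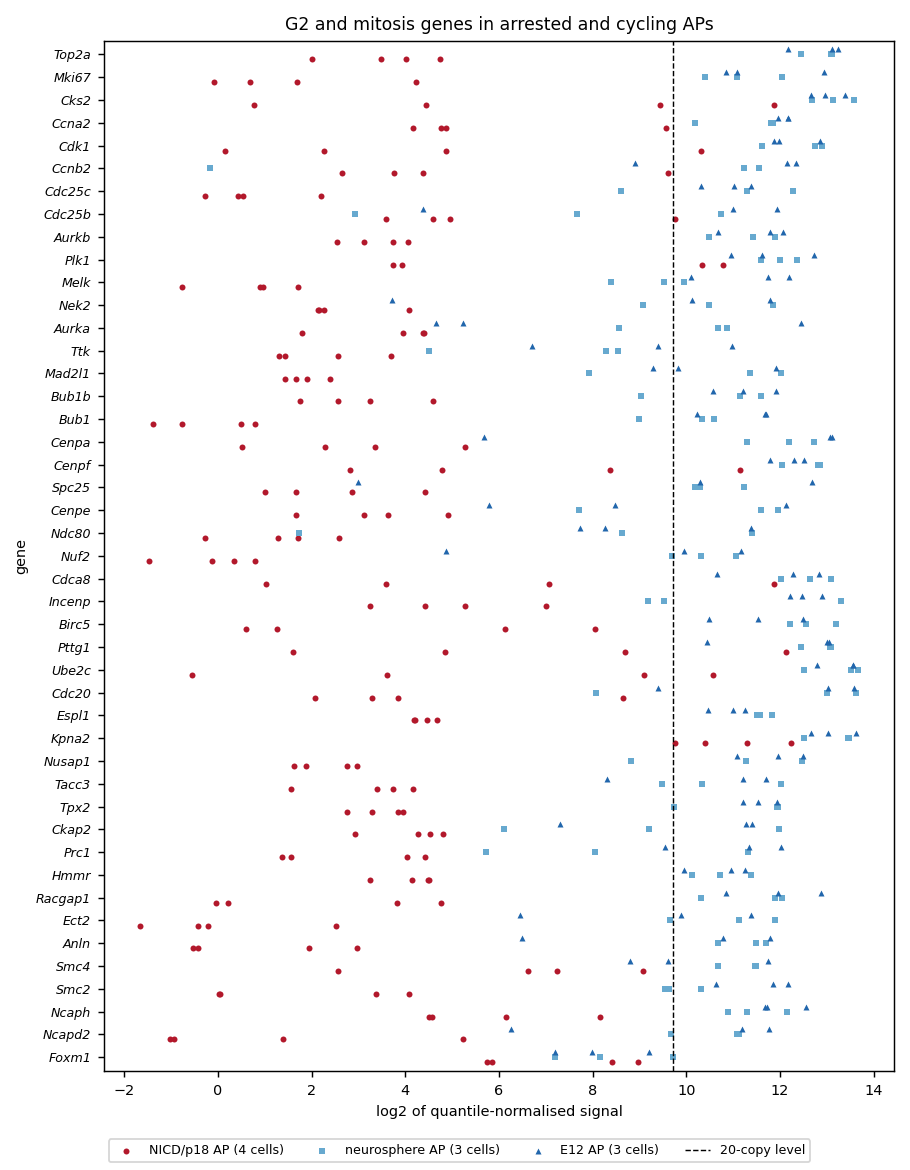
Log2 of the quantile-normalised signal (horizontal axis) of each G2 and mitosis gene (rows, in order of role) in every NICD/p18 AP (circles), neurosphere AP (squares) and E12 AP (triangles), with the 20-copy level as a dashed line. Circles lie left of the line for most genes, and for Kpna2 all 4 lie to its right.

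The proliferation marker Mki67 and Top2a, the topoisomerase that untangles sister chromatids, were under the 20-copy level in all 4 arrested cells. Top2a stood at 13.10, 12.45 and 13.09 in W2G, W2O and W6D, at 13.12, 12.18 and 13.24 in the E12 APs, and at 4.74, 2.02, 3.48 and 4.01 in M5A, M5K, M6C and M6H. The groups were far apart, with a mean difference of -9.32 to the neurosphere APs, whose mean lay 8.96-fold over the 20-copy level. Mki67, which the study had checked by PCR, stood at 10.39, 11.09 and 12.04 in the neurosphere APs and at 4.23, -0.09, 0.69 and 1.69 in the arrested cells.

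Among Cdk1 and its partners the arrested cells were uneven. Cdk1, the kinase that drives entry into mitosis, stood at 12.90, 11.62 and 12.74 in W2G, W2O and W6D and at 4.87, 10.32, 2.26 and 0.16 in the arrested cells. M5A, M6C and M6H were thus near background and M5K was over the 20-copy level, though below each neurosphere cell. Cks2, a small subunit that docks Cdk1 to its targets, stood at 13.58, 12.68 and 13.14 against 11.86, 0.78, 9.44 and 4.45, so that M5A lay just under the lowest neurosphere cell. Ccna2, the cyclin of S phase and G2, stood at 10.19, 11.85 and 11.81 against 9.56, 4.88, 4.76 and 4.17. Ccnb2, a mitotic cyclin, was at -0.18 in W2O while the other neurosphere cells had 11.55 and 11.22, and the arrested cells, at 4.38, 9.62, 2.64 and 3.75, lay between them. Of the phosphatases that activate Cdk1, Cdc25c stood at 12.28, 8.61 and 11.29 against 2.20, 0.53, -0.28 and 0.43. Cdc25b overlapped, at 10.75, 2.92 and 7.67 against 4.95, 9.76, 3.59 and 4.59.

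All 6 mitotic kinases had lower means in the arrested cells, and Plk1 was the most uneven of them. Plk1, which acts in mitotic entry and spindle formation, stood at 11.59 to 12.37 in the 3 neurosphere APs and at 10.34, 3.74, 3.94 and 10.79 in the arrested cells. M5A and M6H were over the 20-copy level, and M5K and M6C were far under it. Aurkb, the kinase of the chromosomal passenger complex, was low in all 4, at 3.75, 3.13, 2.53 and 4.07 against 11.89, 10.48 and 11.42. Aurka, which acts at the spindle poles, stood at 4.39, 1.79, 3.96 and 4.39 against 8.57, 10.68 and 10.88. Aurka was also low in 2 of the 3 E12 APs, at 4.65 and 5.24, but stood at 12.46 in the other, and was not called against that group. The checkpoint kinase Ttk was dim even in neurosphere APs, at 8.29, 4.51 and 8.55, and was over the level in only 12 of the 40 AP-like cells. Nek2, a centrosome kinase, and Melk differed by -7.82 and -8.59 from the neurosphere means, and Melk was not called because the neurosphere mean lay under the level.

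Of the 9 members that separated the arrested from the E11 AP-like cells, 4 belong to the spindle checkpoint or the centromere. Bub1, a checkpoint kinase, stood at 0.78, -1.39, 0.49 and -0.76 in the arrested cells, at 8.99, 10.34 and 10.60 in the neurosphere APs, and in E11 AP-like cells from 7.50 through a median of 11.23 to 12.39. No arrested cell came near the lowest neurosphere or E11 AP-like cell, while E16 AP-like cells reached down to -1.45. Bub1b, a subunit of the checkpoint complex, stood at 3.24, 2.56, 1.76 and 4.59, and E11 AP-like cells ran from 5.78 through 11.35 to 12.71. Mad2l1, which binds and restrains Cdc20, stood at 2.39, 1.42, 1.89 and 1.68 against 11.37, 12.02 and 7.93 in the neurosphere APs. For Mad2l1 the lowest E11 AP-like cell, at 3.86, was far under the level, so that separation lay among values near background. Cenpa, the histone variant of centromeres, stood at 5.28, 0.50, 2.29 and 3.36, and E11 AP-like cells from 9.80 through 12.35 to 13.25. Of the kinetochore genes Cenpf, Cenpe, Spc25 and Nuf2 were called lower against the neurosphere APs. Ndc80 was not, since W2O, at 1.73, lay among the arrested cells, while W2G and W6D had 11.40 and 8.62. Cenpf was over the level in M6H, at 11.15.

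Cdca8, Birc5 and Incenp encode the partners of Aurkb in the passenger complex, and all 3 were called lower against the neurosphere, E12 and E11 AP-like cells alike. Birc5 stood at 12.56, 12.21 and 13.19 in the neurosphere APs and at 6.12, 8.04, 0.60 and 1.27 in the arrested cells. Cdca8 stood at 7.07, 11.87, 1.02 and 3.58 in the arrested cells, so that M5K overlapped the E12 APs (10.66, 12.28 and 12.83) but not the neurosphere APs (13.08, 12.02 and 12.64).

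Genes of anaphase were lower with single bright cells. Ube2c, the ubiquitin-conjugating enzyme of the anaphase-promoting complex, stood at 13.51, 12.52 and 13.68 in the neurosphere APs and at 10.57, 9.10, -0.56 and 3.62 in the arrested cells. Pttg1 (securin) stood at 13.09, 12.44 and 13.07 against 8.70, 4.84, 1.60 and 12.13, so that M6H lay under the neurosphere cells but above the lowest of the E12 APs (10.44, 13.04 and 13.02). Cdc20, the activator of the complex, stood at 8.65, 2.07, 3.85 and 3.29 in the arrested cells, and the neurosphere cell W2O, at 8.08, lay under the highest of them. Espl1 (separase) was even within each group, at 4.47, 4.67, 4.21 and 4.18 against 11.83, 11.56 and 11.51.

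Spindle, cytokinesis and condensin genes completed the set. Kpna2 stood at 12.24, 11.30, 10.39 and 9.76 in the arrested cells and at 13.44, 12.52 and 13.47 in the neurosphere APs, a difference of -2.22, the smallest of the 37 calls. Tpx2, which Kpna2 binds and which activates Aurka, stood at 3.84, 3.30, 2.76 and 3.95 against 11.95, 9.73 and 11.95. Nusap1 and Tacc3, microtubule-binding proteins of the spindle, differed by -8.55 and -7.40. Prc1 and Ckap2 were not called, with W2O at 5.71 and 6.11, and Hmmr was called lower. Of the cytokinesis genes Ect2, an activator of RhoA at the midzone, differed by -10.84 from the neurosphere APs, Anln by -10.29 and Racgap1 by -9.23, while the neurosphere means of the 3 lay 2.25, 2.96 and 3.26 times over the 20-copy level. All 4 condensin subunits, Smc2, Smc4, Ncaph and Ncapd2, were called lower against the neurosphere, E12 and E11 AP-like cells. Smc4 stood at 9.09, 6.62, 7.23 and 2.57 against 10.67, 11.47 and 11.49, and Smc2 at 3.37, 0.03, 4.08 and 0.05 against 9.55, 9.64 and 10.32. Foxm1, a transcription factor known to drive many of these genes, was over the level in 9 of 40 AP-like cells, in 2 of 3 E11 IP-like and in 5 of 8 E16 IP-like cells. It stood at 8.97, 5.75, 5.86 and 8.41 in the arrested cells against 8.15, 7.19 and 9.72.

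**Figure D3:**
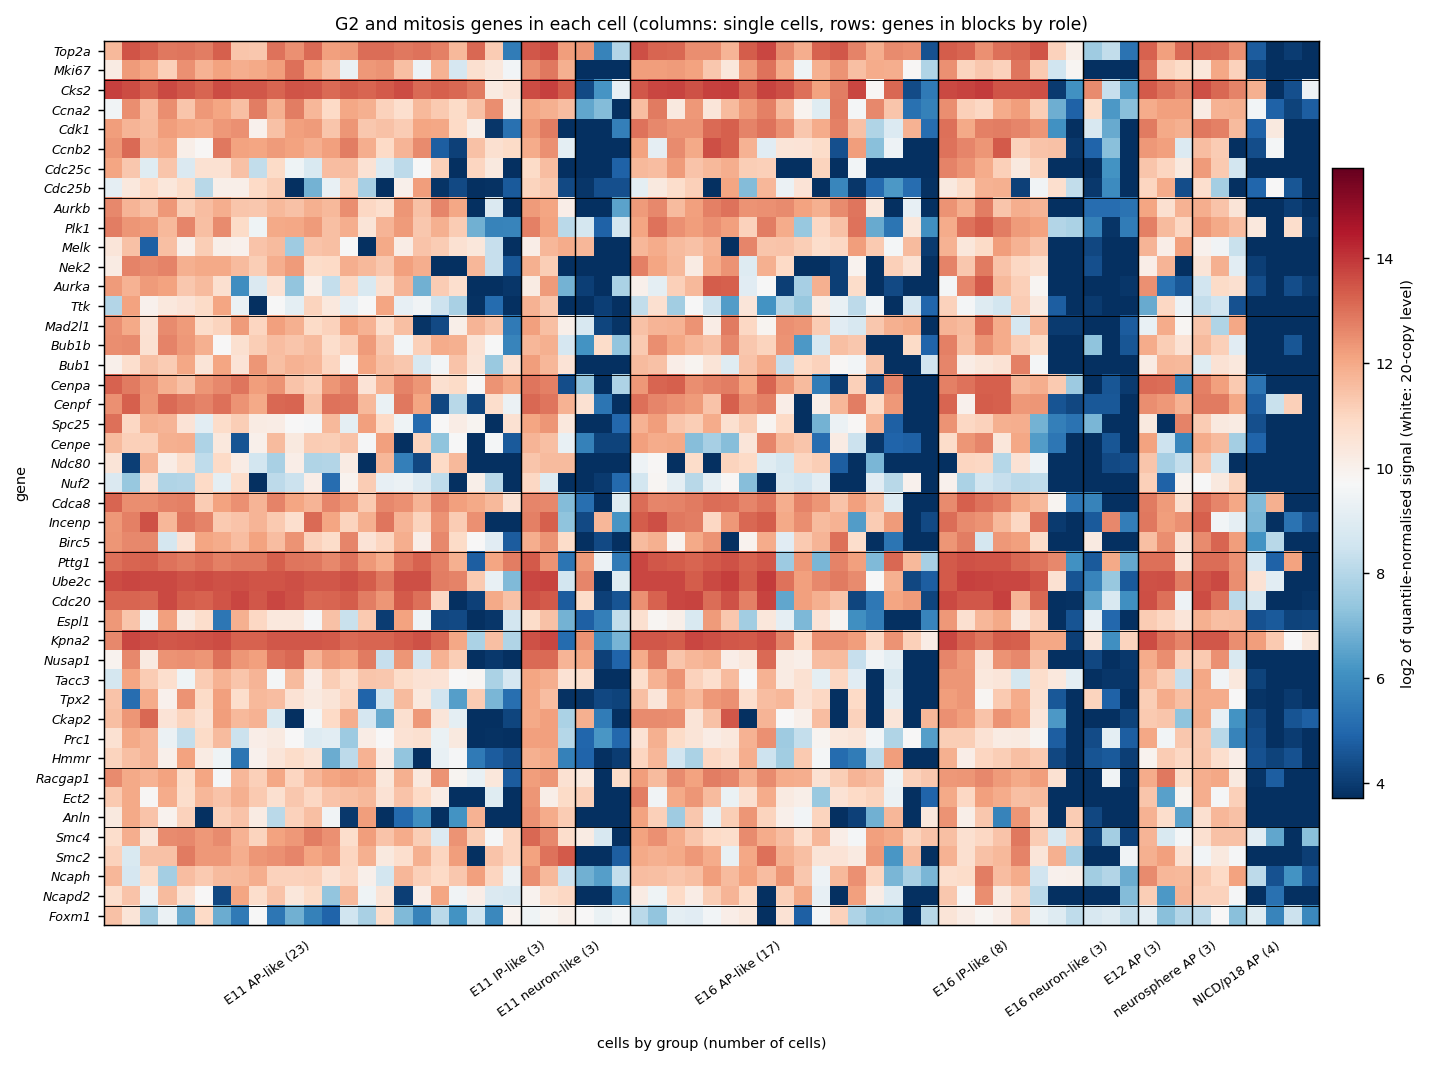
Log2 of the quantile-normalised signal of the 45 genes (rows, in blocks by role) in 67 cells (columns, by group, the cells with most members over the level first). White is the 20-copy level, red above and blue below, and values beyond the colour bar take its end colour. The arrested and neuron-like columns are mostly blue, with a red row at Kpna2 in the arrested cells. The E11 neuron-like cell 43D has 14 genes over the level. Kpna2 is also over it in 1 E11 and 2 E16 neuron-like cells.

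A list of 60 other mitotic genes and one of 28 G1/S and S-phase genes were read in the same way. Against the neurosphere APs, the E12 APs and the E11 AP-like cells, the other mitotic genes called lower in the arrested cells were 20, 20 and 13, and those called higher were 0, 0 and 1. Their median differences were -4.22, -4.58 and -4.25. Of the S-phase genes 9, 14 and 14 were called lower and none higher, with medians of -4.07, -4.71 and -4.24. The arrested cells held 4, 3, 4 and 1 of the 28 S-phase genes over the level, in the order M5A, M5K, M6C and M6H.

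The levels of the members also differed between cells of 1 group. The mean level over the 45 genes had an SD between cells of 1.39 in E11 AP-like cells (n = 23) and 2.10 in E16 AP-like cells (n = 17), and 0.86 and 0.97 in the E12 and neurosphere APs (n = 3 each). In the 4 NICD/p18 APs it was 0.96 among values near background, 0.22 with signals floored at 100 and 0.52 without M5A. The median SD of a single member was 2.39 in E11 AP-like cells, 1.10 in E12 APs, 0.83 in neurosphere APs and 1.60 in NICD/p18 APs, each below the 2.57, 1.67, 1.79 and 2.36 over all genes. It was 3.34 in E16 AP-like cells, above the 2.77 over all genes. Cdca8, Cenpa and Cks2 were over the level in 23 of 23 E11 AP-like cells (exact 95% interval from 85.2%), and Kpna2 in 17 of 17 at E16 (from 80.5%). Over the 40 AP-like cells of both stages, Top2a, Kpna2 and Cks2 were over it in 38 cells each. At the other end were Ttk in 12, Nuf2 in 10 and Foxm1 in 9. The order in between was gradual, with the other 39 genes over the level in 17 to 37 cells.

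E16 and E11 AP-like cells differed by less than their spread, with a mean level over the members of 9.81 ± 2.10 (SD, n = 17) and 10.45 ± 1.39 (SD, n = 23). Birc5 (survivin), a passenger complex subunit, was the 1 member called lower at E16 and none was called higher, where 1.54% of all genes were called lower and 1.22% higher. Birc5 ran from -0.07 through a median of 10.77 to 13.03 at E16 (SD 4.76) and from 4.72 through 11.55 to 12.65 at E11 (SD 1.79). The ranges overlapped and the means differed by -2.56, with 11 of 17 and 20 of 23 cells over the level. Cenpa was over it in 12 of 17 cells at E16 (exact 95% interval 44.0% to 89.7%) and in 23 of 23 at E11. The median difference over the members was -0.69, with 33 of 45 lower at E16, beside -0.12 over all genes. In the signals as deposited the medians were -1.12 and -0.50, and after scaling to the lys spike -1.34 and -0.71, so that 5 and 8 members were then called. The shares of all genes called under these scalings were not counted. With signals floored at 100 no member was called, Birc5 included. In no member did the stages fail to overlap, as they did in 0.0201% of all genes that were lower at E16 and 0.111% that were higher.

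IP-like and AP-like cells of the same stage shared most of the range. At E11, 3 members were called higher in the 3 IP-like cells, where 4.05% of all genes were. They were Anln, a scaffold of the cleavage furrow (11.26, 11.96 and 12.45, against -0.12 to 12.22 in AP-like cells), Ndc80, a kinetochore subunit, and Nusap1. Pttg1 was called lower, where 3.13% of all genes were, with 5.32, 12.39 and 13.41 in the IP-like cells. This count rested on single cells: without 41G, 42M or 45O in turn it was 13, 13 and 9. The share of all genes called without each of these cells was not counted. The median difference was 0.65 beside -0.20 over all genes, and after scaling to the lys spike it was -0.02 beside -0.92. At E16 none of the members was called (1.34% of all genes were lower and 1.60% higher), and the median difference was 0.18 beside -0.02. The call count became 2 without the dimmest array, 75A. It became 5 when the cells 72J and 76J, neuron-like but with Eomes over the level, were counted as IP-like. Both settings were added after seeing the data, and the share of all genes was counted for neither.

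The E11 neuron-like cells had low levels of most members. Against E11 AP-like cells 31 members were called lower and none higher, where 5.81% of all genes were called lower and 4.56% higher, with a median difference of -5.02 beside -0.47. In 9 members every neuron-like cell lay below every AP-like cell, as in 1.12% of all genes. These were Mki67, Ccna2, Ccnb2, Bub1, Cenpa, Birc5, Cdca8, Tpx2 and Cks2. The cell 43D held 14 members over the level, while the other 2 held 1 and 2. These cells also had 3 (30F), 4 (32J) and 6 (43D) of 11 IP markers over the level, with Eomes at 12.26 in 32J and 11.93 in 43D, and the part of this in the result was not tested. With the mean of all probe sets of a gene, 16 members were called lower, with no share of all genes counted. Foxm1 was the 1 member with the higher mean in neuron-like cells, at 9.32, 9.60 and 9.75 against a median of 7.57. Another Foxm1 probe set that reached the level went the same way, with means of 9.07 against 6.81. A further probe set that reached it went the other way, with means of 1.32 against 3.42, both far under the level.

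Across the 40 AP-like cells, each centred on its stage, the members varied together. The median Pearson's r over the 990 pairs was 0.39, beside 0.002 over pairs of all genes, and 961 pairs were above 0. Within E11 alone it was 0.33 and within E16 alone 0.45. The correlation is a description over cells that share array processing and normalisation. Against the mean of the other 44 members, Ube2c (r = 0.93), Nusap1 (0.86), Cks2 (0.83), Kpna2 (0.82) and Cdk1 (0.79) followed most closely. Foxm1 (0.13), Smc4 (0.28), Melk (0.30) and Nuf2 (0.34) followed least. Smc4 had the lowest SD of the members, 0.92.

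**Figure D4:**
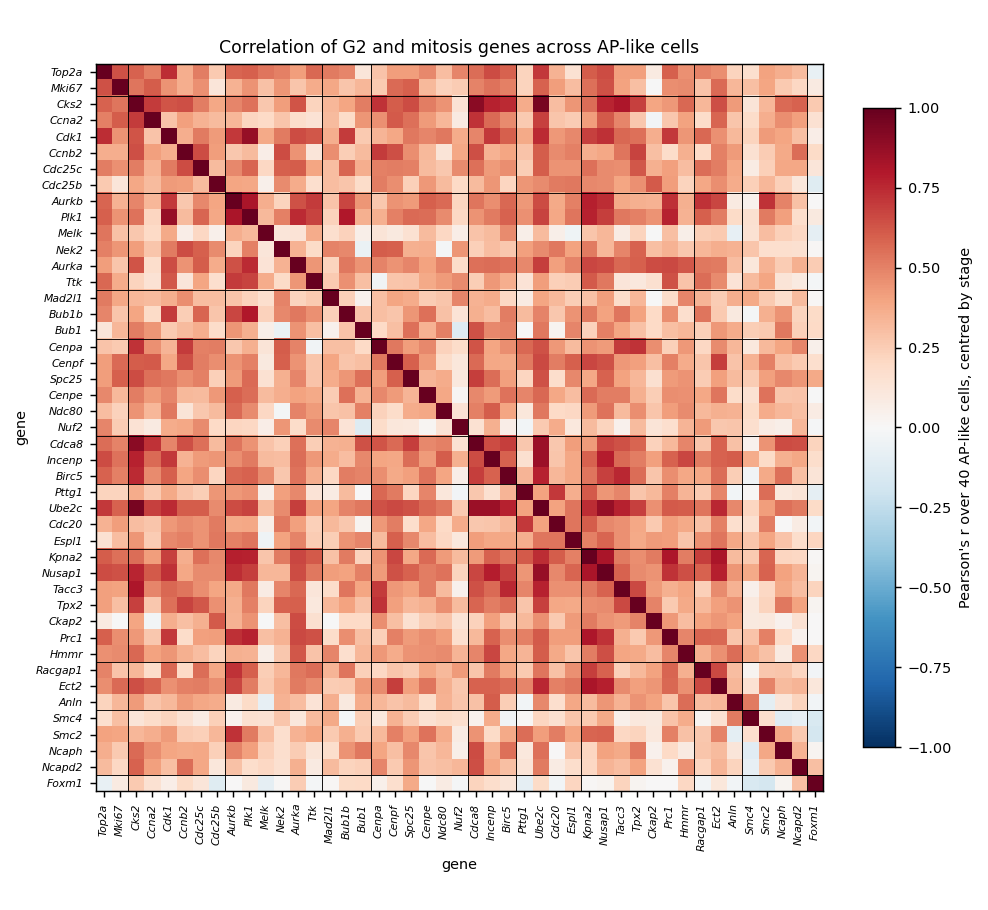
Pearson's r of each pair of the 45 genes (rows and columns, in order of role) over 40 AP-like cells centred by stage, from blue (-1) to red (1). Most squares are red, with pale rows at Foxm1, Smc4, Melk and Nuf2.

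The genes outside the set most like its mean over those cells were Psrc1, a spindle protein (r = 0.81), the midzone kinesin Kif23 (0.79), Ccnf (0.78), Pbk (0.78), Arhgap19 (0.76), Arhgap11a (0.74), the kinesin Kif2c (0.73), Cdca3 (0.73), the kinesin Kif4 (0.71) and Aspm, a spindle pole protein (0.71). 8 of these 10 were in the list of other mitotic genes. For other genes in general r had a median of 0.01.

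S-phase genes went the other way. In AP-like cells the number of members over the level was lower where more of the 28 G1/S and S-phase genes were over it, with r = -0.66 (Spearman's rho -0.73) over the 40 cells centred by stage. It was -0.74 (rho -0.76) in the 23 E11 cells and -0.62 (rho -0.63) in the 17 E16 cells. In the signals as deposited it was -0.38, and scaled to the lys spike -0.43. Of the single S-phase genes 27 of 28 had a negative r with the mean of the members, most of all the chromatin assembly factor Chaf1b (-0.58), the G1/S cyclin Ccne2 (-0.56) and the replicative helicase subunit Mcm6 (-0.54). Rrm1 was the exception (0.19). The E16 AP-like cell with fewest members, 81M with 5, held 22 of the 28 S-phase genes, and the neurosphere APs with 39, 35 and 28 members held 8, 9 and 23. The E16 AP-like cell 81G departed from the pattern, with 17 members and 8 S-phase genes. The arrested and neuron-like cells did not lie on that line, for they were low in both, with 1 to 4 and 2 to 6 S-phase genes. The number of members had an r of 0.22 with the trimmed mean signal of the array over the 40 cells, 0.09 within E11 and 0.40 within E16. With the number of all genes over the level it had an r of 0.24, and of 0.48 and 0.09 within the stages.

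**Figure D5:**
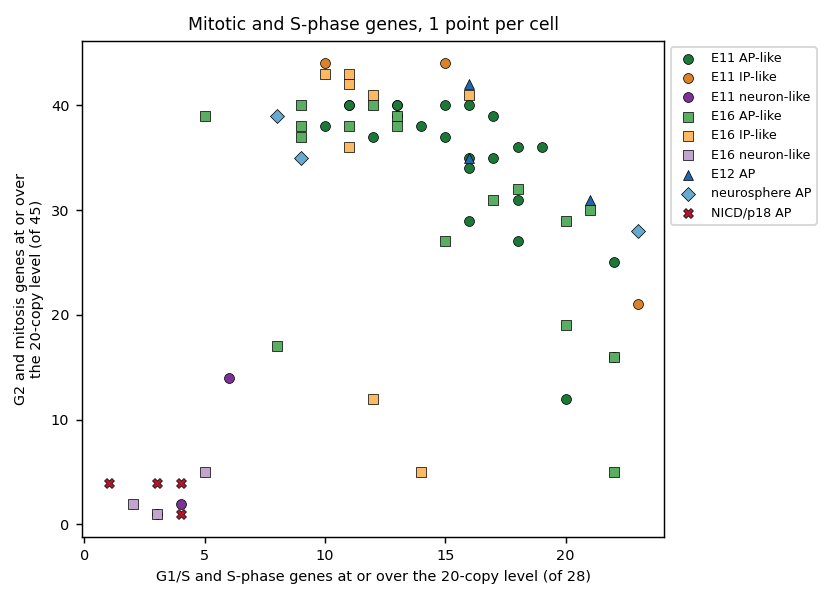
Number of G2 and mitosis genes (vertical axis, of 45) against number of G1/S and S-phase genes (horizontal axis, of 28) at or over the 20-copy level, 1 point per cell, coloured by group. AP-like cells run from many mitotic and few S-phase genes to the reverse, and the NICD/p18 APs and neuron-like cells lie at the lower left with few of each.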

How the data were processed

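Single cells of the CD1 mouse cerebral wall were each hybridised to 1 Affymetrix array. The authors deposited MAS5 intensities on a linear scale, 45101 probe sets by 68 arrays, without quantile normalization. Arrays measure brightness, so there is no read depth, and the number of cells limits the precision. Here the arrays were quantile normalised together, as the study's methods name, and log2 transformed with no offset (Python 3.11.15, numpy 2.4.6, pandas 2.3.3, scipy 1.17.1, scikit-learn 1.9.0, matplotlib 3.10.9). Of the probe sets 34958 had 1 gene symbol in the platform annotation, 932 had several and 9211 were not in it. No 2 arrays of 2278 pairs were identical (highest r 0.716). A gene was kept if its brightest probe set reached the 20-copy level in at least 1 of 67 cells. E11 and E16 cells were split per stage into 3 clusters by complete linkage on correlation of AP, IP and neuron markers floored at 100 signal units. That floor and the number of clusters were set after seeing the data.

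The members and lists were chosen with earlier results of these data known. Named are the members, those called in a comparison and 16 key genes first, the 10 other genes most like their mean, the genes of the transgenes, and Gapdh and Actb. Each group counts as 1 sample, because labels name no embryo, so no p-value or standard error is given. Intervals are exact binomial. Alternatives were the deposited signals, lys-spike scaling, a floor of 100, a doubled or halved 20-copy level, the mean of all probe sets, a call at 1, no filter, k-means classes, cells of a stage without classes, the excluded cell, and leaving out cells. Cdkn2c, the source of the p18 transgene, had a mean of 7.42 in the NICD/p18 APs and 7.58 in the neurosphere APs, and Notch1 9.86 and 11.08, but their probe sets may lie outside the transgenes and so check nothing. Actb stood at 12.44 and 12.59.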

Additional observations from a re-analysis of the deposited data

Results flagged for a closer look

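Cells of a group of 4 to 10 were held against Dixon's critical value for the gap to the nearest other cell, in 34 sets of values. 5 stood apart. The nominal rate of about 1 in 20 holds for independent continuous values. These sets share the same 4 or 8 cells, so the number of flags cannot be held against it. Among the 4 NICD/p18 APs, M6C had 1 member over the 20-copy level while the other 3 had 4 each. With 3 equal counts any differing count is flagged whatever its size, so this flag carries no weight. The cyclin Ccna2 stood at 9.56 in M5A, next to 4.88 in the nearest arrested cell. The kinase Aurka stood at 1.79 in M5K, against 3.96 to 4.39 in the others, all far under the 20-copy level. Among the 8 E16 IP-like cells, 71E was lowest for Cenpa, at 7.54 against 11.29 in the nearest cell, and for Ube2c, at 4.55 against 10.63. That cell held 5 members over the level and 14 of the 28 S-phase genes.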

How the results depend on the processing

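Of 319 values recomputed for 29 results, 272 stayed within the spread between cells or within 1.5 times the reported count, and 47 moved further. Only a correlation, or a median difference of 2 or more, could be counted as reversed by a change of sign, and none was. Counts of calls could not reverse. Under the alternatives they were made for the members alone, so no share of all genes stands beside them. The smaller median difference of E11 IP-like to AP-like cells did change sign, from 0.65 to -0.02 with lys-spike scaling. All 59 alternative median differences of the arrested and neuron-like comparisons stayed below 0. In the signals as deposited the median difference of NICD/p18 APs to E11 AP-like cells was -5.26, calls between E16 and E11 AP-like cells were 5, calls between E11 IP-like and AP-like cells 11, the median of members over the level in neurosphere APs 45, and r with the number of S-phase genes -0.38. With lys-spike scaling the median difference to neurosphere APs was -8.37, those calls were 8 and 10, and r was -0.43. With a floor of 100 the median differences of NICD/p18 APs were -3.98 to neurosphere APs, -4.07 to E12 APs and -3.86 to E11 AP-like cells, that of neuron-like cells -3.31, and the calls E16 against E11 and E11 IP-like against AP-like 0 and 2. The SD of the mean level was then 0.92 in E11 AP-like, 1.30 in E16 AP-like, 1.86 in E16 IP-like cells and 0.22 in NICD/p18 APs. With the 20-copy level doubled the NICD/p18 median was 2, and with it halved the E16 neuron-like median was 6, calls E16 against E11 were 2 and calls E16 IP-like against AP-like 2. With the mean of all probe sets of a gene, which includes probe sets that never reached the level, members called lower were 18 against neurosphere APs, 19 against E12 APs and 15 against E11 AP-like cells, and 16 in neuron-like cells, with medians of -5.88 and -6.48 for the first 2. Calls for E11 IP-like cells were then 2, members over the level were 20, 24, 21, 17, 19 and 23 (medians of E11 AP-like, E11 IP-like, E12, neurosphere, E16 AP-like and E16 IP-like cells), and r was -0.56. At a call of 1 on the log2 scale, 11 members were called between E16 and E11 AP-like cells, 20 for E11 IP-like and 10 for E16 IP-like cells. Among settings added after seeing the data, the median difference to E12 APs was -6.60 without M5K and M6C, and calls for E16 IP-like cells were 5 with 72J and 76J and 2 without 75A. Leaving out 1 cell at a time gave 9 to 13 calls for E11 IP-like cells (4 with all 3) and an SD of 0.52 to 1.17 between NICD/p18 APs, lowest without M5A. It gave 34 to 40 members called lower against neurosphere APs, 30 to 37 against E12 APs and 30 to 31 against E11 AP-like cells. K-means classes differed in 0 cells. No paired analysis was possible because the labels give the groups no shared replicate numbers and no test was made. Signals under the 20-copy level are near background, so the size of a difference to them is uncertain, and groups of 3 or 4 cells leave shares of cells wide open.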
